A study of Homo sapiens with 6 samples.

Results

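The BCL2 family decides whether the outer mitochondrial membrane stays intact. Its genes were followed here in MDA-MB-231 cells after silencing of SDC1, the gene of the heparan sulfate proteoglycan syndecan-1. The 10 genes examined were chosen by name, with earlier results of these data known, as well-known inhibitors, BH3-only genes and effectors of the family. They were read through every probe set that the array annotation ties to a single gene. Of the 10 genes, 9 had such a probe set, 30 in all, out of 41091 single-gene probe sets of 19775 genes. BBC3, which encodes the BH3-only protein PUMA, has 1 probe set, tied to several genes, and was not analysed here.

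MDA-MB-231 is an established human breast cancer line of the triple-negative, mesenchymal-like kind, cultured without any other treatment in the labels. One group of 3 samples received a negative control siRNA and the other group of 3 an siRNA against SDC1. Both groups were therefore transfected cells, and each sample was hybridised to 1 Affymetrix array as biotin-labelled cRNA from total RNA. The series design describes the replicates as independent. The p-values measure the spread between these samples of 1 line. The siRNA sequences, their number and dose, as well as the time from transfection to RNA collection, were absent from the labels read here.

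BCL2-family proteins share short homology domains and bind one another. The inhibitors, among them BCL2, BCL-XL, MCL-1 and BFL-1, hold the effectors BAX and BAK in check. BH3-only proteins such as BIM, NOXA, PUMA and BID are raised or activated by stress, and they neutralise the inhibitors or activate the effectors directly. Active BAX and BAK open the outer membrane, cytochrome c leaves the mitochondria and caspases are activated. Each inhibitor accepts only some BH3-only proteins; NOXA, for example, binds MCL-1 and BFL-1 well and BCL2 poorly. Breast cancer cells commonly depend on MCL-1 or BCL-XL for survival.

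The deposited values are log2 expression values from which each probe set's median over the 6 arrays has been taken, so a value of 0 is that median and no level can be compared between genes. SDC1 stood at 1.13, 1.32 and 1.09 in the control replicates 1, 2 and 3 and at -1.14, -1.16 and -1.43 in the SDC1 siRNA replicates 1, 2 and 3, a difference of -2.42 (SE 0.097, limma adjusted p = 2.05e-06) that left 18.7% of the control level. VIM, CD44, MSN and AXL, markers of the line, all lay in the highest of 3 brightness classes (log2 level 8 to 16), but so did ESR1, ERBB2, EPCAM, PECAM1, VWF and COL1A1. The classes therefore do not show which markers were present. All 4 line markers were called: VIM, CD44 and MSN were lower after SDC1 siRNA, by log2 fold changes of -0.62, -0.68 and -0.27, and AXL higher by 0.25. Their mean log2 value ran from 0.13 to 0.17 over the control arrays and from -0.26 to -0.11 over the SDC1 siRNA arrays, a difference of -0.33. Of the 10 measured markers of luminal, blood, endothelial and fibroblast cells, 3 were lower after SDC1 siRNA (EPCAM, CD14 and COL1A1, by log2 fold changes of -0.34, -0.46 and -0.77) and 0 higher. The mean log2 value of these 10 markers ran from 0.01 to 0.04 over the control arrays and from -0.04 to 0.01 over the SDC1 siRNA arrays. The part of either marker list in the results below was not tested. In bulk RNA, fewer cells of a kind and less RNA per cell cannot be told apart. Poly-A spike-in controls, added to the RNA before labelling, had a mean of 0.61 in control replicate 1, 0.39 in SDC1 siRNA replicate 1 and 0.68 in SDC1 siRNA replicate 2, and of -0.47 to -0.43 in the other three arrays. The arrays were therefore also compared within these sets, called spike-in sets here. Each set has a single array of one group, control replicate 1 in the first and SDC1 siRNA replicate 3 in the second. The 3′ minus 5′ difference of the ACTB control probe sets ran from -0.16 to 0.11 in the control and from -0.09 to 0.05 in the SDC1 siRNA arrays.

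Most of the measured BCL2-family genes were lower after SDC1 siRNA, on both sides of the balance. Past an adjusted p of 0.05 (limma, Benjamini-Hochberg over all 19775 genes), 5 of the 9 genes fell: the inhibitors BCL2A1 and MCL1, the BH3-only genes PMAIP1 and BID, and the effector BAK1. BCL2 alone rose, by a small amount and in a call that rested on the choice of probe set. BCL2L1, BCL2L11 and BAX did not pass. Over all genes, 15.2% were called lower and 13.0% higher, 28.2% in all. The median log2 fold change was -0.39 over the 9 genes and 0.00 over all genes, and the median absolute change was 0.39 against 0.13. The genes were chosen with earlier results of these data known, so these figures describe them and do not test the family. The figures over all genes, here and below, include the dimmer brightness classes, whereas all of the 9 genes but BAK1 lie in the highest. By role, 2 of 4 inhibitors, 2 of 3 BH3-only genes and 1 of 2 effectors fell. For each of these 6 genes the 3 arrays of one group all lay beyond the 3 of the other, 5 lower and 1 higher, where 21.8% of all genes were lower and 20.0% higher in this way (41.8% in all).

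**Figure D1:**
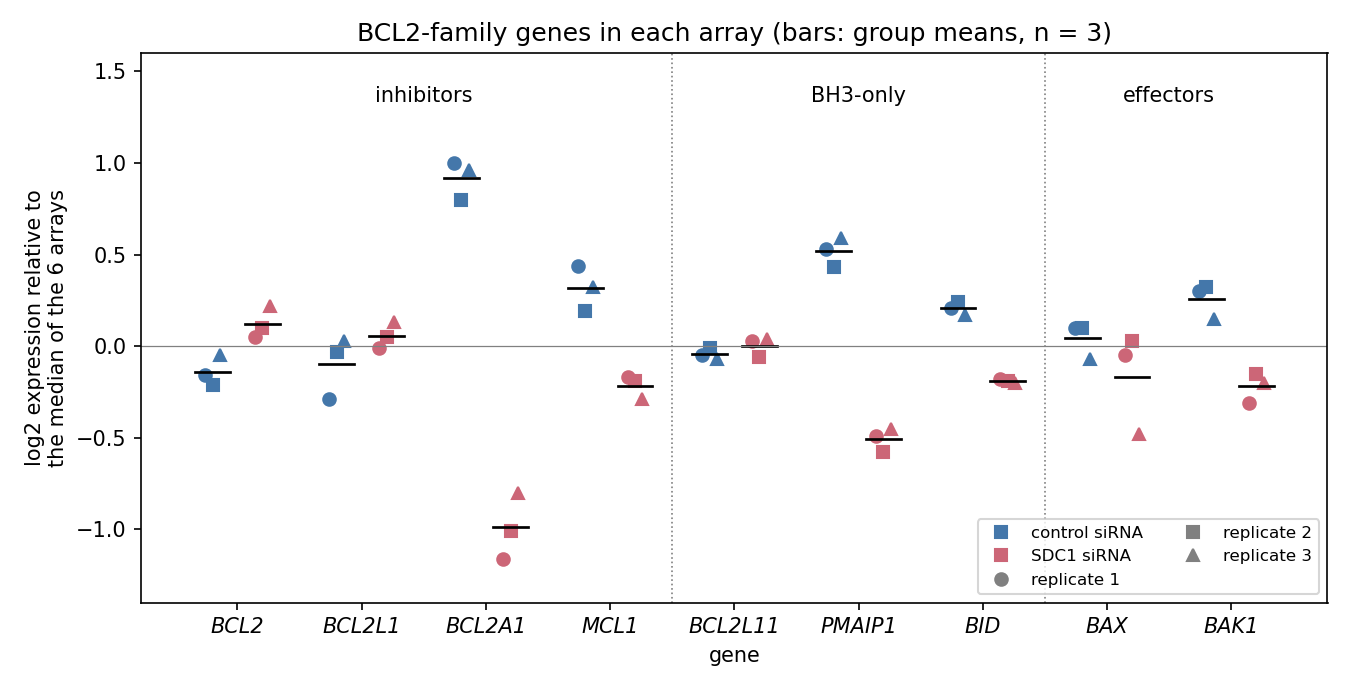
Log2 expression relative to the median of the 6 arrays (vertical axis) of the 9 measured BCL2-family genes, grouped by role. Points are arrays (blue, control siRNA; red, SDC1 siRNA; the marker shape gives the replicate number) and bars are the means of 3 arrays. BCL2A1 has the widest gap, from a control mean of 0.92 to -0.99, and only BCL2 shows non-overlapping groups with the SDC1 siRNA arrays higher.

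The upstream windows of the gene with the largest fall in each role are shown because they hold the letters of promoter elements, and these letters differ between the genes. Each is the 250 bases before the RefSeq transcription start (GRCh38.p14), read 5′ to 3′ on the gene's strand. Windows were found for 9 of the 10 genes, 14 windows in all, and MCL1 had no entry. In the BCL2A1 window, on the minus strand at chr15:79971197-79971446, capitals mark a GAS-type match (the STAT binding motif), an ISRE-core match (the motif of interferon regulatory factors) and a TATA box. In the PMAIP1 window, on the plus strand at chr18:59899746-59899995, they mark 4 GC boxes and 1 CRE half-site. In the BAK1 window, on the minus strand at chr6:33580277-33580526, they mark 2 GC boxes.
BCL2A1: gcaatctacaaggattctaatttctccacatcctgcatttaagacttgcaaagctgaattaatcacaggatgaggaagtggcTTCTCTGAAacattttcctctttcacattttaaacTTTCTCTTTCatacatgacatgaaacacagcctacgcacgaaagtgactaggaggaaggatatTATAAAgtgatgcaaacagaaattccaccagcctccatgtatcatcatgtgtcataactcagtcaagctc
PMAIP1: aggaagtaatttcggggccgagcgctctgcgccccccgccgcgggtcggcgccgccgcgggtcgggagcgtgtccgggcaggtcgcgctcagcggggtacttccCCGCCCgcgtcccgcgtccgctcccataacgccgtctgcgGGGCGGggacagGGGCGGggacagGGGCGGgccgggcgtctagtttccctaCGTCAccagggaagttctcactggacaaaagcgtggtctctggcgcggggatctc
BAK1: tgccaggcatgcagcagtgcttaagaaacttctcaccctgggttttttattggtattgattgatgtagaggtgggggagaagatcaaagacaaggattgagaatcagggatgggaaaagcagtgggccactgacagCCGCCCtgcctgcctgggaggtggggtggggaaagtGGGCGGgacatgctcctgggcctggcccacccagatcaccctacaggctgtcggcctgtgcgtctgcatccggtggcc
The motifs were searched on both strands, with the letters TTCNNNGAA for the GAS motif, the letters GAAA followed by any 2 bases and a second GAAA for the ISRE core, and TATAAA for the TATA box. The GC box was searched as GGGCGG, the CRE half-site as TGACG, the AP-1 site as TGANTCA, the E-box as CACGTG, and the kappaB consensus by its usual pattern. No match of the windows printed overlaps another. Among 35116 windows of the same length in the RefSeq table, 6.57% held the GAS letters, 3.02% the ISRE core, 10.7% the TATA box, 42.6% the GC box and 21.2% the CRE half-site. The GAS match of BCL2A1 begins 168 bases before the start, its ISRE core 133 and its TATA box 70. The GC boxes of PMAIP1 begin 146, 106, 94 and 82 bases before the start and its CRE half-site 55. Those of BAK1 begin at 114 and 78. The BCL2A1 window has 38.8% G and C, against 72.8% for PMAIP1, 58.0% for BAK1 and a median of 58.0% over all windows. The window of BAX holds 4 E-boxes, at 138, 93, 45 and 14 bases, and 6.34% of all windows hold any. The kappaB letters, held by 5.21% of all windows, were not in the windows of these genes. A match is a description of the letters and was not tested as a binding site.

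Among the inhibitors, BCL2A1, which encodes BFL-1 (also called A1) and is a well-known NF-kappaB target, showed the largest change. It stood at 1.00, 0.80 and 0.96 in control replicates 1, 2 and 3 and at -1.16, -1.01 and -0.80 in SDC1 siRNA replicates 1, 2 and 3. Every SDC1 siRNA array was below every control array, with a gap wider than the spread within either group. The means were 0.92 ± 0.11 and -0.99 ± 0.18 (SD, n = 3), a log2 fold change of -1.91 (SE 0.101, 95% interval -2.14 to -1.68, limma adjusted p = 5.79e-06) or 26.6% of the control level. It ranked 30 among the 19775 genes, counted from the largest fall. Within the spike-in sets the difference was -2.09 and -1.67. A single probe set, 205681_at, reads BCL2A1, so no second probe set bears on this value.

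MCL1 encodes a short-lived inhibitor whose protein is rapidly made and destroyed. Its values were 0.44, 0.19 and 0.32 in the control arrays and -0.17, -0.19 and -0.29 in the SDC1 siRNA arrays, without overlap. The group means were 0.32 ± 0.13 and -0.22 ± 0.07 (SD, n = 3). MCL1 fell to 69% of the control level, a log2 fold change of -0.53 (SE 0.078, 95% interval -0.71 to -0.36, limma adjusted p = 0.00113), and the spike-in sets gave -0.62 and -0.55. The fall was thus smaller than that of BCL2A1, whose interval it does not touch.

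BCL2, the founding inhibitor of the family, went the other way. Its values were -0.16, -0.21 and -0.05 in the control arrays and 0.05, 0.10 and 0.22 in the SDC1 siRNA arrays, so the groups did not overlap. The group means were -0.14 ± 0.08 and 0.12 ± 0.09 (SD, n = 3), and the log2 fold change was 0.27 (SE 0.072, 95% interval 0.10 to 0.43, limma adjusted p = 0.0231), or 120% of control. This call rested on the choice of probe set, since 1 of the 4 BCL2 probe sets enters the value. It enters alone through a brightness class read from its 3 highest arrays, which here are the SDC1 siRNA arrays. With classes from all 6 arrays, the difference was 0.12 (limma adjusted p = 0.171). With all 4 averaged, it was also 0.12 (limma adjusted p = 0.161). The call was also lost without control replicate 1 (0.26, limma adjusted p = 0.0668), control replicate 2 (0.23, 0.0786), SDC1 siRNA replicate 2 (0.28, 0.0554) or SDC1 siRNA replicate 3 (0.22, 0.0707).

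BCL2L1 encodes BCL-XL and, from an alternative splice site, the pro-death form BCL-XS. Its control values were -0.29, -0.03 and 0.03 and its SDC1 siRNA values -0.01, 0.05 and 0.13, and the groups overlapped. The log2 fold change of 0.15 (SE 0.090) had a 95% interval from -0.06 to 0.36 and did not pass the threshold (limma adjusted p = 0.273). Control replicate 1 was the lowest array, and without it the difference was 0.06.

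Of the BH3-only genes, PMAIP1 changed most. It encodes NOXA, the BH3-only partner of MCL-1 and BFL-1. Its values were 0.53, 0.43 and 0.59 in the control arrays and -0.49, -0.58 and -0.45 in the SDC1 siRNA arrays, with narrow groups and no overlap. The means were 0.52 ± 0.08 and -0.50 ± 0.07 (SD, n = 3), a log2 fold change of -1.02 (SE 0.068, 95% interval -1.18 to -0.87, limma adjusted p = 1.91e-05) that left 49.2% of the control level. The spike-in sets gave -1.07 and -0.96, and both PMAIP1 probe sets passed the threshold.

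BID, which links death receptors to mitochondria once caspase-8 has cleaved it, stood at 0.21, 0.24 and 0.17 in the control arrays and at -0.18, -0.19 and -0.20 in the SDC1 siRNA arrays. These were the tightest groups of the 5 genes that fell, with SDs of 0.03 and 0.01 (n = 3). The log2 fold change was -0.39 (SE 0.056, 95% interval -0.52 to -0.27, limma adjusted p = 0.000948), or 76.1% of control, and the spike-in sets gave -0.39 and -0.40.

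BCL2L11 encodes BIM, which can bind every inhibitor measured here. Its gene value was -0.05, -0.01 and -0.07 in the control arrays and 0.03, -0.06 and 0.04 in the SDC1 siRNA arrays, and the groups overlapped. The log2 fold change was 0.05 (SE 0.060, limma adjusted p = 0.628). Its 95% interval of -0.09 to 0.18 holds none of the falls of PMAIP1 or BID.

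The effectors BAX and BAK1 encode the pore-forming proteins themselves. BAK1 stood at 0.30, 0.32 and 0.15 in the control arrays and at -0.31, -0.15 and -0.20 in the SDC1 siRNA arrays, without overlap. It fell to 72% of control, a log2 fold change of -0.47 (SE 0.074, 95% interval -0.64 to -0.31, limma adjusted p = 0.0016). The means were 0.26 ± 0.09 and -0.22 ± 0.08 (SD, n = 3), and the spike-in sets gave -0.53 and -0.43. Its 1 probe set lies in the middle brightness class (log2 level 4 to 8), while those used for the other 8 genes lie in the highest. These classes are read from the 3 highest arrays of each probe set.

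BAX values were 0.10, 0.10 and -0.07 in the control arrays and -0.05, 0.03 and -0.48 in the SDC1 siRNA arrays, and the groups overlapped. SDC1 siRNA replicate 3 stood apart at -0.48. The log2 fold change was -0.21 (SE 0.127, 95% interval -0.50 to 0.08, limma adjusted p = 0.274), and without that array it was -0.06 (limma adjusted p = 0.671). The 2 spike-in sets gave -0.11 and -0.50, the second holding SDC1 siRNA replicate 3.

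Because several of these genes are read by more than 1 probe set, each probe set was also tested on its own over all 54613 probe sets that are no manufacturer control. Of the 30, 9 were lower, 2 higher and 19 did not pass, where 10.1% and 9.70% of all probe sets were called lower and higher (19.8% in all). The groups did not overlap for 12 lower and 5 higher ones, against 17.4% and 18.3% of all probe sets (35.7% in all). The probe sets of PMAIP1 were alike, at -1.01 and -1.03. Those of BAX, at -0.18 and -0.24, and of BCL2L1, at 0.09 to 0.19, did not pass.

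**Figure D2:**
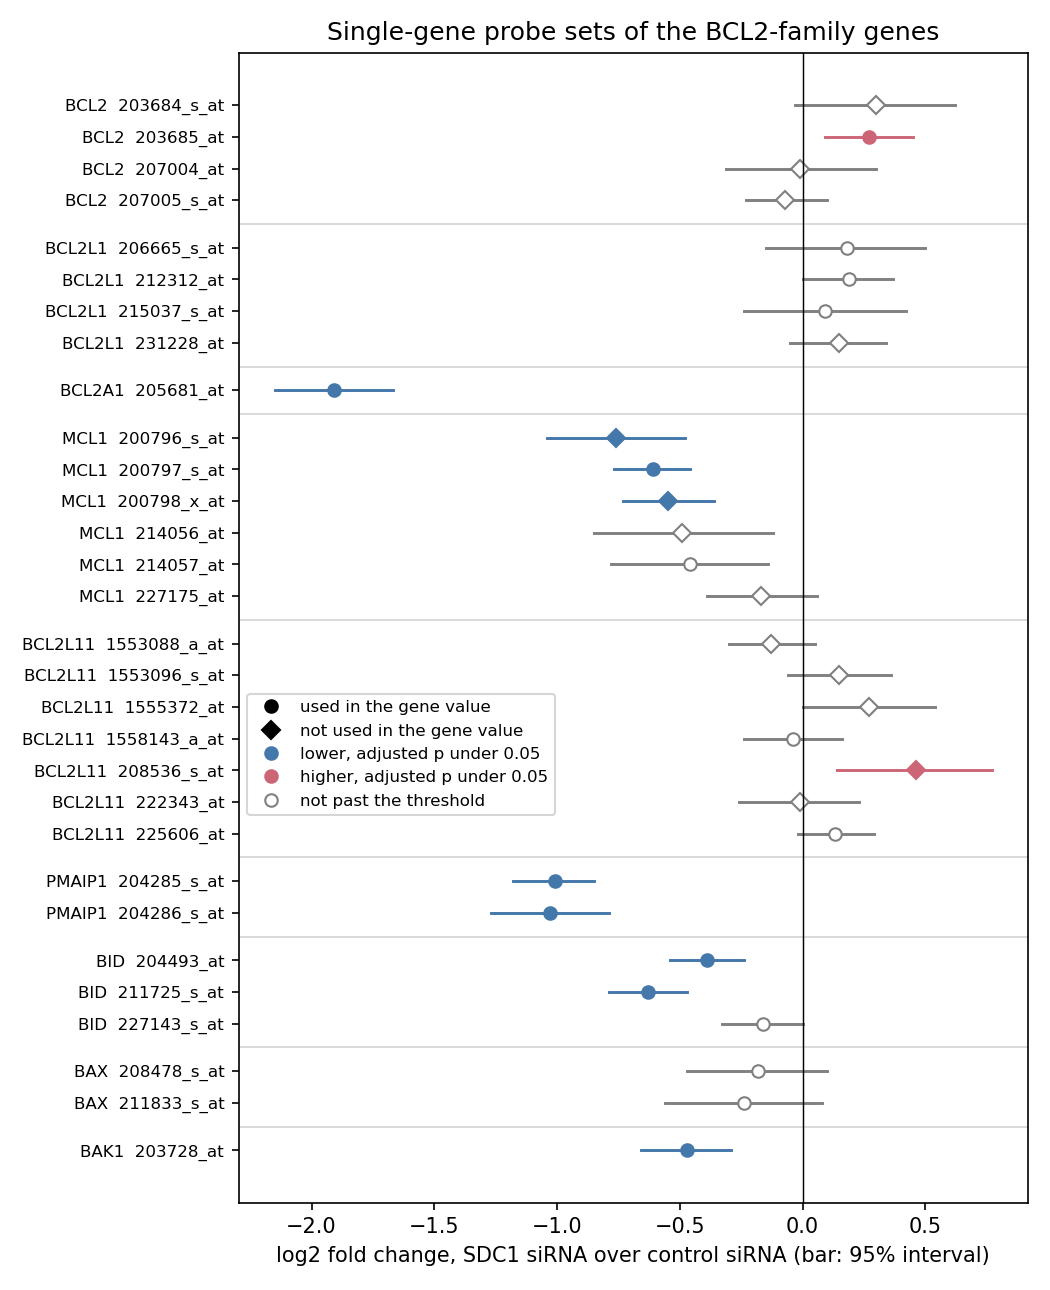
Log2 fold change of SDC1 siRNA over control siRNA (horizontal axis, bars are 95% intervals) for the 30 single-gene probe sets, listed by gene. Circles enter the gene value and diamonds do not, and filled symbols passed an adjusted p of 0.05 over 54613 probe sets. MCL1 spans -0.76 to -0.17 and BID -0.63 to -0.16 between probe sets, while both PMAIP1 probe sets lie near -1.

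The 6 MCL1 probe sets all had negative differences, and 3 passed: 200796_s_at at -0.76 (limma adjusted p = 0.00276), 200797_s_at at -0.61 (0.000416) and 200798_x_at at -0.55 (0.00168). The other three were 214056_at at -0.49 (limma adjusted p = 0.0667), 214057_at at -0.46 (0.0527) and 227175_at at -0.17 (0.31). A test of each probe set against the mean of its gene's other probe sets, added after the values were seen, passed for 14.0% of all probe sets compared and for 3 of 28 here, no higher a share. MCL1 227175_at was above the other 5 by 0.41 (SE 0.087, limma adjusted p = 0.0134). BID 211725_s_at lay below the other two by a difference of -0.35 (SE 0.086, limma adjusted p = 0.0245), and BID 227143_s_at lay above them by 0.35 (SE 0.087, 0.0273). The values of those BID probe sets were -0.63 and -0.16, with 204493_at between at -0.39. The BID tests overlap, since each compares a probe set with a mean that holds the other one. All MCL1 and BID probe sets kept the sign of the change. With 3 of 28 past the threshold against 14.0% of all probe sets, such differences in size are not particular to these genes.

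The BCL2 and BCL2L11 probe sets had both signs. Of the 4 BCL2 probe sets, 203685_at of BCL2 was higher by 0.27 (limma adjusted p = 0.0474), a call lost after quantile normalization (0.0561) and in each fit without 1 array except that without control replicate 3. The others were 203684_s_at at 0.30 (limma adjusted p = 0.199), with SDC1 siRNA replicate 3 apart at 0.58, 207004_at at -0.01 (0.986) and 207005_s_at at -0.07 (0.612). For BCL2L11, 1 of 7 probe sets passed, 208536_s_at, which stood at -0.50, -0.08 and -0.18 in the control arrays and at 0.08, 0.08 and 0.45 in the SDC1 siRNA arrays. Its difference of 0.46 (SE 0.138, limma adjusted p = 0.0483) was not used in the gene value and lost its call in each fit without 1 array except that without control replicate 2. It did not differ past the threshold from the gene's other probe sets (0.40, limma adjusted p = 0.0836). The remaining 6 lay between -0.13 and 0.27. The threshold was thus passed by a narrow margin for the risen probe set of each gene.

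Since both inhibitors and their opponents fell, the mean log2 value by role was taken in each array, as a description with no test. The inhibitors averaged 0.25, 0.19 and 0.31 in the control arrays and -0.32, -0.26 and -0.18 in the SDC1 siRNA arrays, a difference of -0.51. Without BCL2A1, the other three inhibitors differed by -0.04, with values of -0.00, -0.02 and 0.10 against -0.04, -0.01 and 0.02. The shift of the inhibitor mean was thus carried by BCL2A1, with MCL1 and BCL2 moving in opposite directions. The BH3-only genes averaged 0.23, 0.22 and 0.23 in the control and -0.21, -0.28 and -0.20 in the SDC1 siRNA arrays, a difference of -0.46. The effectors differed by -0.34. Inhibitors minus all death-promoting genes was 0.03, -0.03 and 0.16 in the control and -0.12, -0.08 and 0.07 in the SDC1 siRNA arrays. This difference of -0.10 was no larger than the SD of 0.10 within each group, and the arrays overlapped. It was -0.13 and 0.01 within the spike-in sets and -0.15 to -0.04 when 1 array was left out. Without BCL2A1, inhibitors minus death-promoting genes was higher after SDC1 siRNA by 0.37, from -0.23 to -0.06 in the control and 0.16 to 0.28 in the SDC1 siRNA arrays. BCL2A1 was left out for its fall in these same values, while PMAIP1, the death-promoting gene that fell most, was kept. Leaving out only the most fallen inhibitor raises this difference by construction, so it is no measure of the balance.

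Known binding partners among the genes that fell did so by unlike amounts. MCL1 minus PMAIP1 was -0.09, -0.24 and -0.27 in the control arrays and 0.32, 0.38 and 0.15 in the SDC1 siRNA arrays, a difference of 0.49, since PMAIP1 fell further than MCL1. BCL2A1 minus PMAIP1 was 0.47, 0.36 and 0.37 against -0.67, -0.44 and -0.35, a difference of -0.89. Relative to NOXA mRNA, MCL1 mRNA was therefore higher and BCL2A1 mRNA lower after SDC1 siRNA, in every array. These are differences of centred log2 values and say nothing of which mRNA was more abundant.

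**Figure D3:**
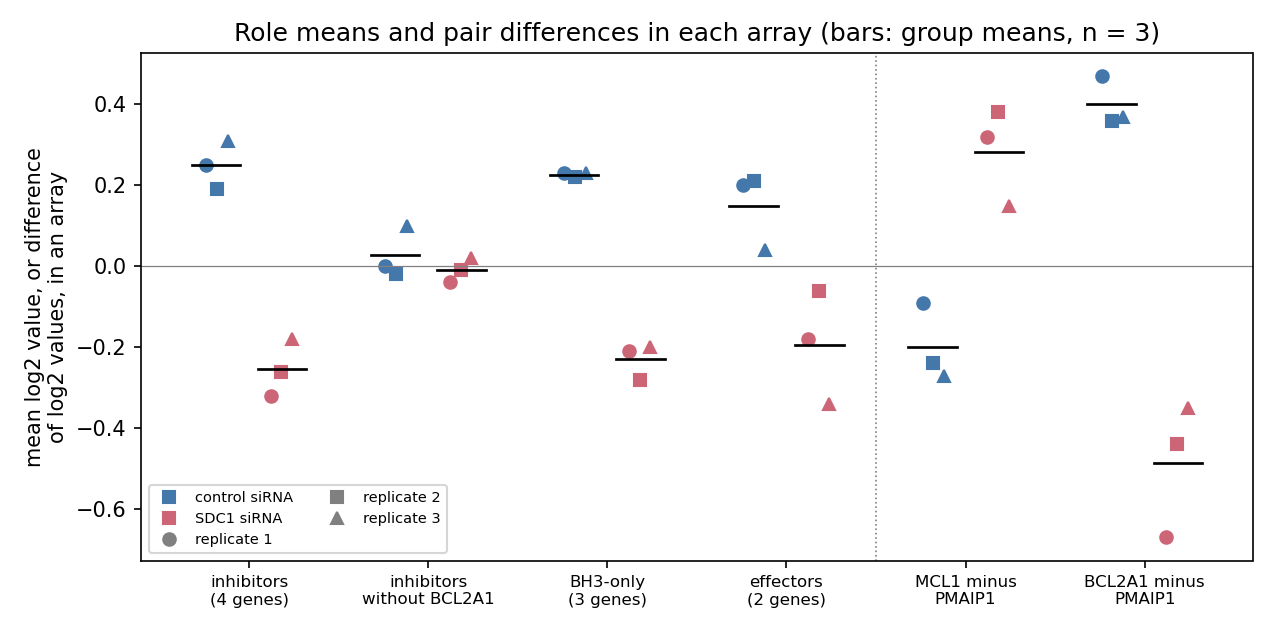
Mean log2 value by role, and the difference of log2 values for 2 pairs, in each array (vertical axis, log2 units relative to the median of the 6 arrays); points are arrays, marker shapes are replicate numbers and bars are group means of 3. The inhibitor mean separates the groups with BCL2A1 (difference -0.51) and not without it (-0.04), and MCL1 minus PMAIP1 and BCL2A1 minus PMAIP1 move in opposite directions (0.49 and -0.89).

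Other family genes and genes of proteins that interact with the family moved in both directions. Of 18 such genes, which include the BNIP genes, BCLAF1 and MOAP1 and were all measured, 5 fell and 2 rose (38.9% called, against 28.2% of all genes), with a median log2 fold change of -0.05. BCL2L12 fell by 0.50 (SE 0.060, limma adjusted p = 0.000399). BNIP3, a mitophagy receptor induced by hypoxia, rose by 0.63 (SE 0.077, limma adjusted p = 0.000431). The mitophagy receptor BCL2L13 fell by 0.36 (SE 0.062, limma adjusted p = 0.00281), and by 0.20 with all its probe sets averaged. BAD, a BH3-only gene whose protein is silenced by phosphorylation, rose by 0.40 (SE 0.066, limma adjusted p = 0.00216), but by 0.18 (0.155) with all its probe sets averaged. BNIP2 fell by 0.35 (SE 0.065, limma adjusted p = 0.00397), and was at 0.00 (0.995) with brightness classes taken from all 6 arrays. BIK, a BH3-only gene of the endoplasmic reticulum, and BCL2L2, the inhibitor BCL-W, had differences of -0.32 (limma adjusted p = 0.0245) and -0.22 (0.034). With the spike-in set as a block these calls were lost (limma adjusted p = 0.0576 for BIK and 0.0673 for BCL2L2). BIK also lost its call without control replicate 3 or SDC1 siRNA replicate 1 or 3, and BCL2L2 without control replicate 2 or 3 or SDC1 siRNA replicate 1 or 3.

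Genes of the mitochondrial step, where BAX and BAK act, and of caspase activation after it moved in both directions. Of 18 listed genes, 15 were measured, 4 fell and 3 rose (46.7% called, against 28.2% of all genes), with a median of -0.00. MTCH2, an outer-membrane protein that receives truncated BID, rose by 0.54 (SE 0.063, limma adjusted p = 0.000347), and by 0.18 with brightness classes from all 6 arrays. BIRC2, which encodes the ubiquitin ligase cIAP1, rose by 0.40 (SE 0.061, limma adjusted p = 0.00152). APAF1, the scaffold of the apoptosome, fell by 0.38 (SE 0.063, limma adjusted p = 0.00211), and by 0.21 with all probe sets averaged. XIAP, the direct caspase inhibitor, fell by 0.34 (SE 0.063, limma adjusted p = 0.00365). DNM1L, the fission enzyme DRP1, fell by 0.28 (limma adjusted p = 0.0073), but by 0.16 (0.0704) with all probe sets averaged. ENDOG, a mitochondrial nuclease, rose by 0.28 (limma adjusted p = 0.0181), a call lost without control replicate 1 or 3 or SDC1 siRNA replicate 1. The apoptosome scaffold and a caspase inhibitor were thus both lower.

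**Figure D4:**
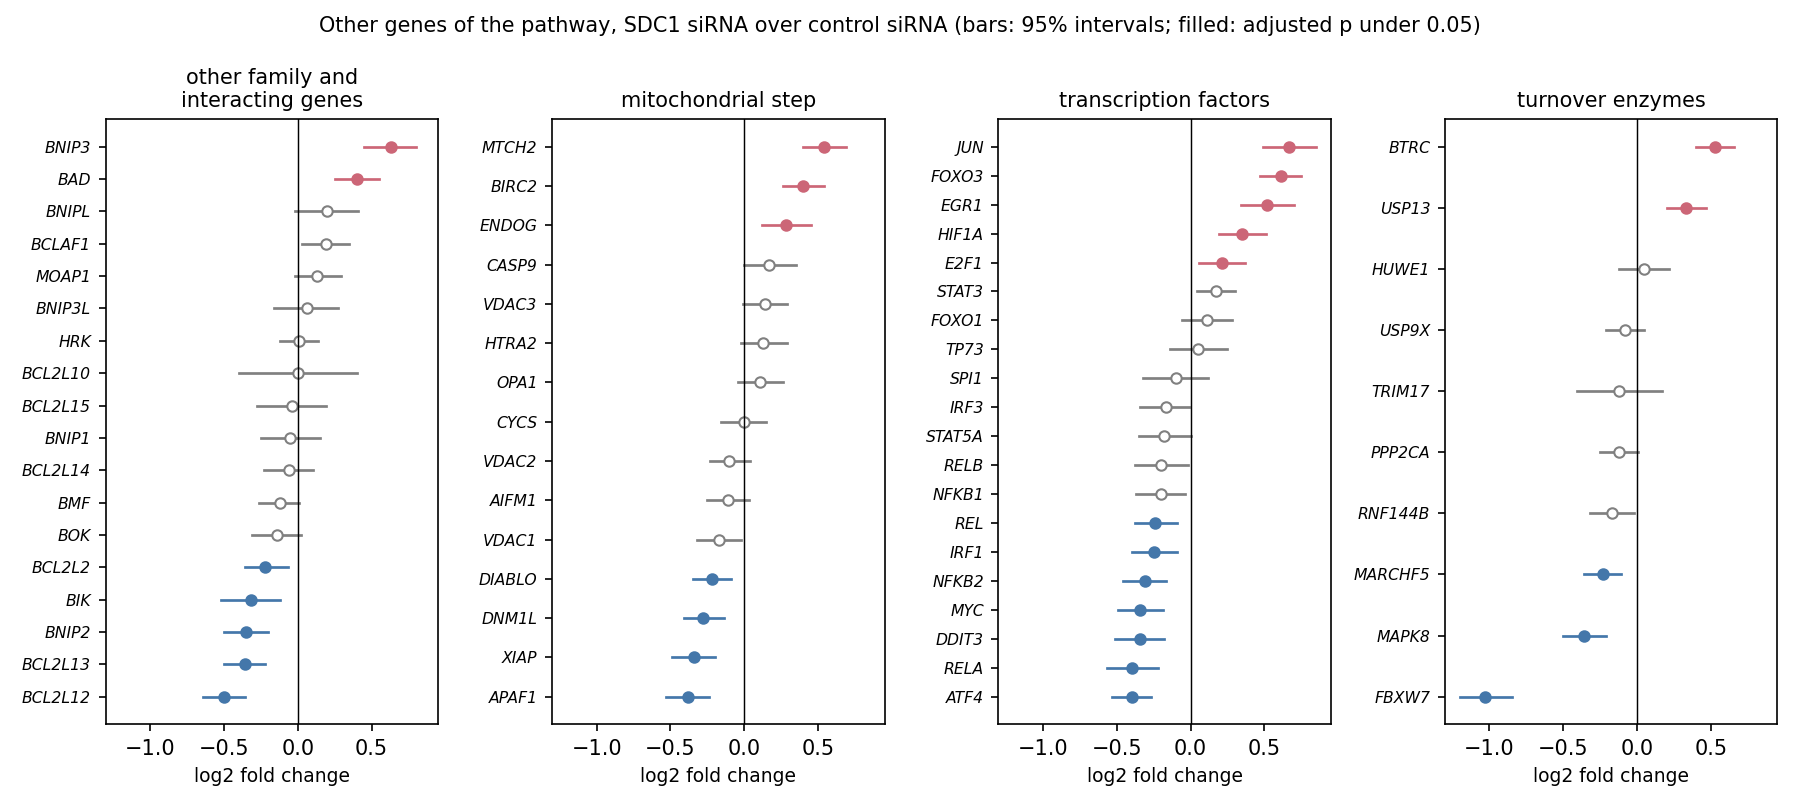
Log2 fold change of SDC1 siRNA over control siRNA (horizontal axis, bars are 95% intervals) for the measured genes of 4 lists around the BCL2 family; blue filled points fell, red filled points rose past an adjusted p of 0.05 over 19775 genes and open points did not pass. Each list holds genes on both sides of 0, from FBXW7 at -1.03 to JUN at 0.67.

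Transcription factors known to drive members of the family changed in both directions. Of 21 listed, 20 were measured, 7 fell and 5 rose (60% called, against 28.2% of all genes), with a median of -0.18. FOXO3, a driver of BIM, rose by 0.61 (SE 0.061, limma adjusted p = 0.000148), while the BCL2L11 gene value differed by 0.05. JUN and EGR1, immediate early factors, rose by 0.67 (SE 0.080, limma adjusted p = 0.00036) and 0.52 (SE 0.079, 0.00144), and by 0.31 and 0.30 with all probe sets averaged. ATF4, the stress factor that drives PMAIP1, fell by 0.40 (SE 0.059, limma adjusted p = 0.00113), and PMAIP1 itself by 1.02. RELA, the NF-kappaB subunit p65, fell by 0.40 (SE 0.078, limma adjusted p = 0.00527) and BCL2A1 fell by 1.91. MYC fell by 0.34 (SE 0.067, limma adjusted p = 0.00523). Whether any of these factors had a part in the changes of the family genes was not tested.

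Of 12 enzymes known to set the turnover of BCL2-family proteins, 10 were measured, 3 fell and 2 rose (50% called, against 28.2% of all genes), with a median of -0.12. FBXW7, the ubiquitin ligase subunit that marks MCL-1 protein for destruction, fell by 1.03 (SE 0.076, limma adjusted p = 3.28e-05), and by 0.62 with all probe sets averaged. BTRC, another ligase subunit, rose by 0.53 (SE 0.056, limma adjusted p = 0.000216), and USP13, a deubiquitinase of MCL-1, rose by 0.33 (SE 0.058, limma adjusted p = 0.00278). MAPK8, the kinase JNK1, fell by 0.36 (SE 0.064, limma adjusted p = 0.00346), but by 0.06 (0.632) with brightness classes from all 6 arrays. Protein was not measured in these samples.

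The genes whose pattern over the 6 arrays was most like that of BCL2A1 were FMNL3, an actin-regulating formin (Pearson r = 0.9991), CASP4, an inflammatory caspase (0.9990), and FIRRM (0.9989). Their log2 fold changes were smaller, at -0.55, -0.78 and -0.62. Such likeness was shared by many genes: 261 of 19774 had r above 0.99 with BCL2A1, and the 6 points fall into 2 groups for each of these genes named.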

How the data were processed

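Total RNA of 6 MDA-MB-231 samples, 3 per group, was hybridised to Affymetrix arrays. The deposited log2 values were made by the authors with RMA (robust multi-array average), per the submitters' processing notes, with no version; other steps are not given in the labels. The medians of all 54675 probe sets over the 6 arrays were within 5e-07 of 0, so values are centred. The log base was read from the numeric step of the values, which also gave each probe set a brightness class (log2 level 2 to 4, 4 to 8 or 8 to 16). The class was read from the 3 arrays with the highest values of the probe set. Where the groups do not overlap, these 3 arrays are all of 1 group. Which probe sets enter a gene value can then depend on the difference. Of the highest class, 15.7% moved in larger steps than that level gives and may be placed too high. Centring removes levels and leaves differences between groups unchanged. The annotation named 1 gene for 41091 probe sets that are no control, several for 1801 and none for 11777; 41037 gene identifiers were found in RefSeq GRCh38.p14, which gave current symbols.

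Genes were given the average of those single-gene probe sets that lie in their highest brightness class, without those ending in _x_at where others exist. The linear model of limma 3.58.1 (R 4.3.3; lmFit, then eBayes), 2-sided and without covariates, tested the differences, with Benjamini-Hochberg adjustment at 0.05 over 19775 genes or 54613 probe sets, and the fit was checked on simulated data. Detection could not be judged from centred values. Precision is limited by 3 arrays per group: the median SE of a log2 fold change was 0.075. Array SDs ran from 0.186 to 0.208, and no arrays were identical.

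The family members, the lists and the tests were chosen with earlier results of these data known. The genes named are all members with all their probe sets, the other family and interacting genes past the threshold, the 6, 6 and 4 genes of lowest p in the lists of the mitochondrial step, transcription factors and turnover enzymes, and the 3 genes most correlated with the member of lowest p. Alternatives were other probe set rules, a filter on dim genes, another prior, quantile normalization, replicate and spike-in blocks, and leaving out each array.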

Additional observations from a re-analysis of the deposited data

How the results depend on the processing

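Over 13 alternatives each, the 9 family genes kept their direction and side of the threshold in 111 of 117 fits, the 6 exceptions being the call of BCL2. Their probe sets did so in 301 of 330 fits, and the other genes named in 322 of 338. The log2 fold change of BCL2A1 ran from -2.01 to -1.79, PMAIP1 from -1.06 to -0.99, MCL1 from -0.61 to -0.47, BAK1 from -0.53 to -0.43, BID from -0.41 to -0.38 and SDC1 from -2.47 to -2.28. The count of family genes that fell was 5 throughout; that of genes that rose was 0 with all probe sets averaged or classes from all 6 arrays, and 0 to 1 with 1 array left out. Among the 18 other family and interacting genes, 1 rose with all probe sets averaged, and 3 fell with the spike-in block or, as the lower end of 3 to 5, without 1 array (control replicate 3, SDC1 siRNA replicate 1 or 3). Family probe sets called higher were 0 after quantile normalization and 0 to 1 without 1 array. Signs turned for 4 family probe sets with differences near 0 and for BNIP2. 1558143_a_at of BCL2L11 was 0.01 with the spike-in block and -0.08 to 0.03 without 1 array, and 222343_at of BCL2L11 0.04 and -0.11 to 0.06. Without 1 array, 215037_s_at of BCL2L1 ran from -0.07 to 0.21 and 207004_at of BCL2 from -0.09 to 0.12. BNIP2 was 0.00 with classes from all 6 arrays. The cause was not tested.

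Same-numbered samples correlated by 0.01, 0.08 and 0.10 in their deviations, and differently numbered ones by -0.12 to 0.04. These values do not settle whether the numbers mark pairs, and the main fit did not take them as pairing. With the replicate block BCL2A1 was -1.91 (limma adjusted p = 0.000169), 5 family genes fell and 1 rose, and 214056_at of MCL1 was also called (limma adjusted p = 0.0451). With centred values, signal over background is unknown, so a probe set with no change cannot be told from one that is not detected.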
